A study of Mus musculus with 6 samples.

Results

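The cells described here carry the name n17-M/TC-3 in the neuron annotation deposited with single-cell RNA sequencing of the mouse olfactory bulb, one of 3 clusters that this annotation names as mitral and tufted cells (M/TC). Every cell with that name was taken and no other rule was applied. There were 927 n17 cells among 21746 annotated neurons and 51426 annotated cells of all kinds, against 90 cells of n15-M/TC-1 and 116 cells of n16-M/TC-2. The annotation holds 18 neuronal types in all.

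The study profiled 6 libraries, 2 in each of 3 groups, and each library was made from the bulbs of 3 wild-type C57BL/6NJ mice that were 14 weeks old and carried no transgene. The question was how sensory input changes the cells of the bulb. The control group is labelled as not manipulated, while the text of the study also speaks of the open side of occluded animals as the control. The naris-occluded group had 1 nostril closed for 6 weeks and its bulb was taken from the deprived side. The olfactory-trained group was deprived of water and learned to discriminate odors for a water reward over 6 weeks. The paper describes water deprivation for no other group, so in the comparisons of the trained group it cannot be told apart from training. Within a group the first library came from pooled males and the second from pooled females, so sex and replicate number cannot be told apart. Because each group has 2 pools, the p-values below speak only for these libraries. The edgeR and DESeq2 tests also share the spread between libraries across genes, so their p-values do not rest on the spread of the single gene alone.

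Mitral and tufted cells are the output neurons of the olfactory bulb. Their apical dendrites receive glutamate from the axons of olfactory sensory neurons inside glomeruli, and their own axons release glutamate in olfactory cortex. In the bulb their lateral dendrites also release glutamate onto granule cells and receive GABA back at reciprocal synapses. Mitral cell bodies lie in a single thin layer, whereas tufted cells lie closer to the glomeruli, and many external tufted cells make the peptide cholecystokinin.

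The libraries gave 236 and 175 n17 cells in the control group, 148 and 118 in the naris-occluded group, and 154 and 96 in the olfactory-trained group. The summed unique molecular identifiers (UMIs, each marking 1 captured transcript molecule) of the n17 cells ranged from 151416 to 372344 per library. The median n17 cell had 865 UMIs and 544 genes, against 1507 UMIs in n15, 1092.5 in n16 and 990 over all annotated neurons. Mitochondrially encoded transcripts made up 16.4% of the UMIs of the median n17 cell, 9.21% in n15 and 15.1% in n16. No cell barcode was shared between libraries among the n17 cells. The deepest single cell held between 4.51% and 17.1% of its library's n17 UMIs, with the highest share in control 2.

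The n17 cells carried the defining genes of mitral and tufted cells. At least 1 UMI of Cdhr1, a cadherin-related protein of these cells, was found in 73.6% of n17 cells at a median depth of 865 UMIs, against 2.58% of the sensory neuron cluster n01 at a median of 808.5 UMIs. With each cell thinned to 500 UMIs the shares were 58.0% and 1.33%. Slc17a7, the vesicular glutamate transporter VGLUT1, was found in 77.1% of n17 cells and 6.08% of n01 cells, or 58.8% and 3.83% after thinning. Reln, which encodes the secreted glycoprotein reelin, was found in 65.7% and 2.58%, or 47.7% and 1.58% after thinning. Of a list of 7 such markers, 78.4% of n17 cells had 2 or more and 7.44% had none, whereas 0.583% of n01 cells had 2 or more.

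The markers occurred together in the same n17 cells. After thinning, Cdhr1 was found in 69.4% of the 545 cells with an Slc17a7 UMI and in 41.9% of the 382 without one, and in 72.2% of the cells with a Reln UMI against 45.2% of those without. Gad1, the GABA-synthesising enzyme of interneurons, was found in 14.8% of thinned n17 cells, below the 16.7% in n01 sensory neurons, and in 38.0% of the granule cell cluster n07 (median 882 UMIs). Its share hardly moved with Slc17a7, being 13.8% in cells with an Slc17a7 UMI and 16.2% in cells without. Levels below are in CPM, a gene's UMI count scaled to the standard library total, of the summed cells of a type in a library, given as the mean over the 6 libraries unless stated.

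A small set of genes had its highest neuronal level in the n17 cells. Of the 18560 genes in the table, 47 (0.253%) reached at least 50 CPM in n17 and 2 times the level of every other neuronal type. The next highest type was n15 for 25 of the 47 genes, the external plexiform interneurons n18 for 10 and n16 for 7. By another rule, 31 genes at 100 CPM or more were higher in n17 than in every other type in each of the 6 libraries. These genes describe how n17 differs from the other clusters and were not tested, since the cells were grouped by the same genes.

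**Figure D1:**
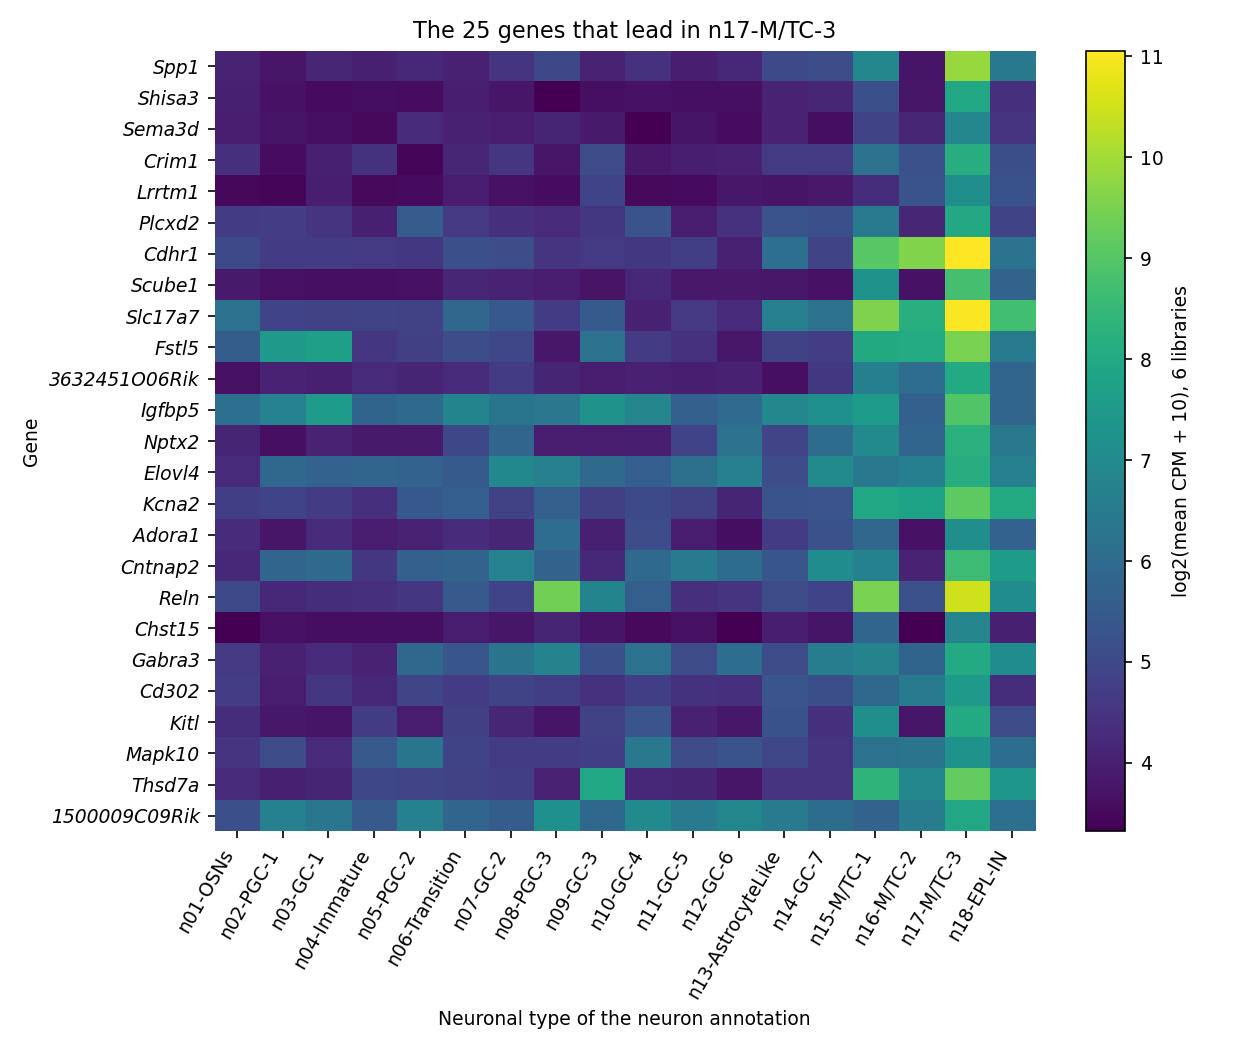
Heat map of the 25 of these 31 genes with the largest ratio to the next type, as log2 of the mean CPM over 6 libraries plus 10, with the 18 neuronal types as columns. Spp1 and Shisa3 stand out in the n17 column, while Cdhr1, Slc17a7 and Reln are also raised in n15 and Cdhr1 in n16.

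Spp1, which encodes the secreted phosphoprotein osteopontin, showed the largest ratio to the next type. It was 1113 and 1315 CPM in control, 397 and 772 CPM in naris-occluded and 848 and 1043 CPM in trained libraries, with a mean of 915 ± 319 CPM (SD, n = 6). It averaged 108 CPM in n15, where the highest library had 194 CPM, and 3.48 CPM in n16. All 6 n17 libraries therefore lay above all n15 and n16 libraries. After thinning, 36.1% of n17 cells had an Spp1 UMI, against 2.22% of n15, 0.862% of n16 and 0.0833% of n01 cells.

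Shisa3, a membrane protein that restrains Wnt and FGF signalling, was 237 ± 36.9 CPM in n17 (SD, n = 6), from 183 to 292 CPM in single libraries, and 27.4 CPM in n15, the next type. Sema3d, a secreted guidance cue, was 109.7 ± 20.9 CPM against 20.3 CPM in n15. Crim1, a membrane protein that binds bone morphogenetic proteins, was 273 ± 37.8 CPM against 65.6 CPM in n15. Lrrtm1, a postsynaptic adhesion protein, was 135 ± 20.6 CPM, with 29.8 CPM in n16 as the next level. The secreted proteins Scube1 (423 ± 85.8 CPM) and Fstl5 (717 ± 56.1 CPM) and the pentraxin Nptx2 (297 ± 72.2 CPM), which gathers AMPA receptors at synapses, were each more than 2 times as high as in n15 or n16.

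The 3 best known output neuron genes in the set were unequal among the M/TC clusters. Cdhr1 was 2346 and 2372 CPM in control, 1708 and 2084 CPM in naris-occluded and 2277 and 1902 CPM in trained libraries of n17, all above the highest library of n15 (901 CPM) and of n16 (1500.3 CPM). Slc17a7 was 2238 and 2469, 1719 and 1751, and 2066 and 1988 CPM in the same order. Its highest library in n15 had 917 CPM and in n16 682 CPM, so these did not overlap with n17 either. Reln was 1436 ± 138 CPM in n17, 708 CPM in n15 and 27.9 CPM in n16, where 8 UMIs were found and the level was near the median of the other types (22.8 CPM).

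Further leading genes acted in excitability and signalling. Kcna2, a delayed-rectifier potassium channel subunit of axons, was 556 ± 67.0 CPM against 253 CPM in n18. Cntnap2, which clusters those channels beside the node of Ranvier, was 383 ± 71.4 CPM, 181 CPM in n18 and 95.6 CPM in n15. Gabra3, a GABA-A receptor subunit, was 252 ± 36.2 CPM against 125 CPM in n18, and Adora1, the inhibitory A1 adenosine receptor, was 134 ± 26.0 CPM against 57.7 CPM in n08. Elovl4, which elongates very long fatty acids, was 273 ± 52.7 CPM with 121 CPM in n14 next. Thsd7a, which was higher in n17 in each library but less than 2 times as high as in n15, was 573 ± 110.3 CPM in n17, 319 CPM in n15 and 110.3 CPM in n16.

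Part of the set was not particular to n17 once glia, vessels and immune cells were counted as well. Of the 47 genes, 30 still led when the nonneuronal clusters were added and 17 did not. Igfbp5, an insulin-like growth factor binding protein, was 483 CPM in n17 but 1703 CPM in the ensheathing cell cluster OEC1. Spp1 was 637 CPM in the mesenchymal cluster Mes1, and Sema3d was 155 CPM in oligodendrocyte precursors. Cd302 and Creg1 were higher in the microglial cluster MicroG2, at 211 and 397 CPM, than in n17, at 168 and 156 CPM.

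Against n15, 49 genes (0.264% of the table) were at least 4-fold higher in n17 and 143 (0.77%) at least 4-fold lower, counting genes of 100 CPM or more on the higher side whose libraries did not overlap. Without the 4-fold limit, 7.13% of the 6956 genes averaging 20 CPM or more over the 18 types were above n15 with no overlap and 5.25% below. Atp6v1a, the catalytic subunit of the vesicle and lysosome proton pump, was 408 ± 83 CPM in n17 (310 to 518 CPM) and 28.3 CPM in n15 (0 to 108 CPM). Pcdh20, a protocadherin, was 155 CPM against 5.35 CPM, and Rcan2, a calcineurin inhibitor, was 165 CPM against 15.2 CPM. The n15 levels of Atp6v1a, Pcdh20 and Rcan2 rest on 5, 1 and 3 UMIs.

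The genes with the lowest ratio of n17 to n15 had varied roles. Srrm4, a splicing factor of neurons, was 44.6 ± 12.1 CPM in n17 and 444 CPM in n15, where no library was under 289 CPM. Zcchc7, a zinc knuckle protein of RNA decay, was 90.5 CPM against 826 CPM, and Miat, a nuclear long noncoding RNA, was 17.8 CPM against 218 CPM. Slc17a9, the vesicular nucleotide transporter, was 11.5 CPM against 197 CPM. Of 6 nuclear long noncoding RNAs, 4 were lower in n17 with no overlap and none was higher, against 5.25% and 7.13% of all genes. Meg3 was 3908 ± 1855 CPM in n17 and 17256 CPM in n15, Snhg11 was 1868 ± 922 CPM and 10929 CPM, and Malat1 was 19377 ± 2077 CPM and 52883 CPM. Among the cells of the whole-bulb cluster N14, described below, 2 of the 6 were lower without overlap, against 186 of the 6956 genes. There Meg3 was 8439 CPM in n17 and 17409.5 CPM in n15, and Snhg11 was 3920 and 11009 CPM, while Malat1 (31075 and 52862 CPM) overlapped. The mitochondrial share of UMIs, which was higher in n17 than in n15, moved the other way, and its part in these differences was not tested.

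Against n16, 81 genes (0.436%) were 4-fold higher in n17 and 42 (0.226%) were 4-fold lower, while 4.13% and 1.7% of the 6956 genes lay above and below with no overlap. The strongest difference was in Ly6g6e, a surface protein of the Ly6 family, at 24.8 ± 15.0 CPM in n17 and 4059 CPM in n16, where single libraries ranged from 2864 to 5689 CPM. A Ly6g6e UMI was found in 1.29% of thinned n17 cells, 75.0% of n16 cells and 0.333% of n01 cells. Vsnl1, a calcium sensor, was 57.9 ± 9.24 CPM in n17 and 1685 CPM in n16. Igfbp2, another insulin-like growth factor binding protein, was 136 CPM against 2987 CPM. Neurod1, a transcription factor of excitatory neurons, was 29.7 CPM against 523 CPM, and Cacna1i, a low-threshold calcium channel, was 19.4 CPM against 361 CPM.

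In the other direction, Ndnf, a secreted neurotrophic factor, was 726 ± 144 CPM in n17 and 6.82 CPM (2 UMIs) in n16, with 156 CPM in n15. Ntng1, a membrane-bound netrin that guides axons, was 885 ± 145 CPM in n17, 33.4 CPM in n16 and 1711 CPM in n15, so that n17 lay between the other two without overlap with either. Ms4a15 was 478 CPM in n17 and 514 CPM in n15, where the libraries overlapped, but 8.31 CPM in n16. Mdga1, an adhesion protein, was 201 CPM in n17, 174 CPM in n15 and listed at 0 in all n16 libraries. Of the 81 genes, 60 overlapped with n15, 18 were above n15 without overlap and 3 were below.

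**Figure D2:**
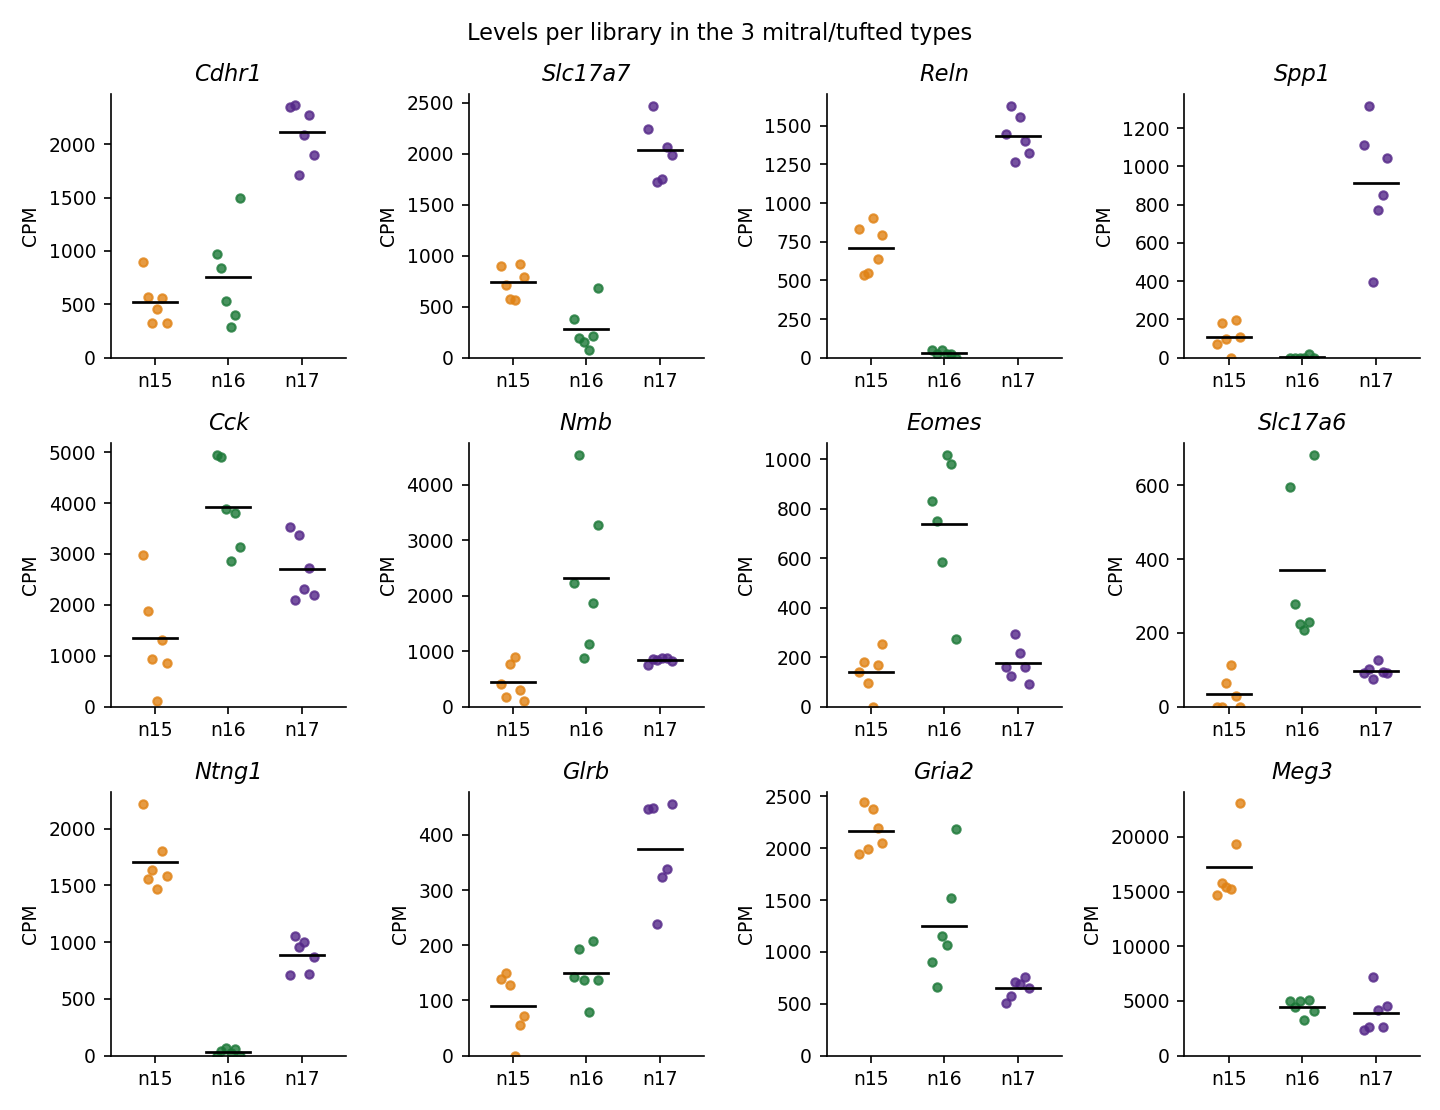
CPM of 12 genes in n15, n16 and n17, with 1 point per library (6 each) and a line at the mean. Cdhr1, Slc17a7 and Spp1 are highest in n17 without overlap, Eomes, Slc17a6, Cck and Nmb average highest in n16, and Ntng1, Gria2 and Meg3 are highest in n15.

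Among genes used to tell mitral from tufted cells, n17 took no single side. Of the 4 mitral-leaning genes at 20 CPM or more, 3 were above n16 and 1, Ntng1, was below n15. Of all genes, 4.13% were above and 1.7% below n16, and 7.13% were above and 5.25% below n15. Of the 4 tufted-leaning genes, Calb2, the calcium buffer calretinin, was 892 ± 324 CPM in n17 and above both n15 (229.8 CPM) and n16 (304 CPM), although the granule cell cluster n03 had 13129 CPM. Ly6g6e was below n16. Within N14, 1 mitral-leaning gene was above n16 and Ntng1 was still below n15. Calb2 overlapped there with both clusters (948 CPM, with 229 CPM in n15 and 159 CPM in n16), and 2 tufted-leaning genes were below n16. All 6956 genes gave 225 above and 121 below n16 within N14, and 186 below n15. Cck, the cholecystokinin precursor, ranged from 2101 to 3532 CPM in n17 and averaged 1345 CPM in n15 and 3923 CPM in n16, with overlap on both sides. Within the n17 cells, thinned, a Calb2 UMI was found in 15.2% of the 409 cells with a Cck UMI and in 25.9% of the 518 cells without one.

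Of 17 transcription factors at 20 CPM or more, none was above or below n15 without overlap and none was above n16. Of all genes, 7.13% were above and 5.25% below n15, and 4.13% were above n16. Among 17 genes such shares amount to very few, so the lack is not read as a trait of transcription factors. The 2 below n16, against 1.7% of all genes, were Neurod1 and Bcl11b, a zinc finger factor of neurons, at 77.5 ± 38.0 CPM in n17 and 421 CPM in n16. Within the whole-bulb cluster N14, 3 were below n16 and 1 was below n15, against 121 and 186 of the 6956 genes. Tbr1, a T-box factor of glutamatergic projection neurons, was 73.0 ± 12.7 CPM in n17 and 5.99 CPM in n15. Its mean over the 18 types was under the 20 CPM limit of the count. Ebf3, a helix-loop-helix factor, was 25.2 ± 14 CPM in n17 and listed at 0 in all libraries of n15 and n16. Lhx1 and Lhx5, LIM factors of mitral cells, averaged 7.26 and 4.84 CPM in n17 and were also listed at 0 in n15 and n16. Among the N14 cells, described below, Ebf3 was 64.0 CPM in n17 and again listed at 0 in n15 and n16, without overlap. For Lhx1 and Lhx5 the 90 and 116 cells of those clusters give few UMIs, and a difference was not detectable at this depth.

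Of 8 genes for glutamate release at 20 CPM or more, 2 were above and 1 was below n15, and 3 were above and 1 was below n16, while the others overlapped. Over all genes these shares were 7.13% and 5.25% for n15, and 4.13% and 1.7% for n16. Slc17a6, the second vesicular glutamate transporter VGLUT2, was 97.0 ± 16.7 CPM in n17 (75.2 to 126 CPM) and below every library of n16, whose mean was 369 CPM. Slc17a7 had the opposite order. Within N14, Slc17a6 was 177 CPM in n17 and 347 CPM in n16 and overlapped. Of the 8 genes none was above or below n15 there without overlap, while 2 were above n16 and none was below. All 6956 genes gave 390 above and 186 below n15 there, and 225 above and 121 below n16. Slc38a1, a neuronal glutamine carrier, was 688 ± 189 CPM in n17 and above n15 (225 CPM).

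Most receptor genes overlapped with the other M/TC clusters, as did most genes of any kind. Of all 6956 genes, 6095 overlapped with n15 and 6551 with n16. Of 14 glutamate receptor genes, 1 was above and 2 were below n15, and 1 was above and 2 were below n16, against 7.13% and 5.25% of all genes for n15 and 4.13% and 1.7% for n16. Of 12 GABA and glycine receptor genes, 3 were above n15 and 3 above n16, and none was below. Within N14 the glutamate receptor counts were 0 above and 2 below n15 and 2 above and 3 below n16, and 2 of the 12 were above n15 and 1 above n16. All 6956 genes gave 390 above and 186 below n15 there, and 225 above and 121 below n16. Gria2, the AMPA receptor subunit that limits calcium entry, was 648 ± 91.8 CPM in n17 and 1940.0 to 2449 CPM in the libraries of n15, and Gria4 was 129 CPM against 298 CPM in n15 and 744 CPM in n16. Glrb, the glycine receptor beta subunit, was 375 ± 89.0 CPM, 90.6 CPM in n15 and 149 CPM in n16.

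Most ion channel genes overlapped with the other M/TC clusters, as did 6095 of all 6956 genes with n15 and 6551 with n16. Of all genes, 7.13% were above and 5.25% below n15, and 4.13% were above and 1.7% below n16. Of 23 potassium channel genes, 2 were above and 1 was below n15, and 4 were above and 1 was below n16. Lrrc55, an auxiliary subunit of large-conductance potassium channels, was 342 ± 53.3 CPM in n17 and 10.6 CPM in n16. Kcnk15, a background potassium channel gene outside the list and named after its values were seen, was 80.3 ± 18.1 CPM in n17, 52.1 CPM in n15 (0 to 113 CPM), listed at 0 in all n16 libraries and at most 2.90 CPM outside the M/TC clusters. Within N14 it was 11.5 CPM in n17 and 52.4 CPM in n15. Of 20 sodium and calcium channel genes, 1 was above n15, and 2 were above and 1 was below n16. Within N14 no gene of either channel list was above n15, 1 potassium channel gene was below it, and 3 and 2 genes were above n16. Of the 6956 genes, 390 were above and 186 below n15 there, and 225 were above n16. Over all 6956 genes the median log2 ratio of n17 was -0.05 to n15 and -0.03 to n16.

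Many genes of peptides and other secreted proteins had their highest level in n17. Of 30 members at 20 CPM or more, 11 were above n15 and none was below, 10 were above and 3 were below n16, and the median log2 ratio to n15 was 1.14. Of all genes, 7.13% were above n15 and 4.13% above n16. Within the whole-bulb cluster N14, described below, none of the 30 was above n15, against 390 of the 6956 genes. There 10 were above and 2 below n16, against 225 and 121 of the 6956. In the whole list of 34, 13 had their highest level of the 18 types in n17, against 1426 of the 18560 genes in the table and 6 of 10 identity genes. Of the 18560 genes, 11604 averaged under 20 CPM over the 18 types, against 4 of the 34. This list, like the others, was chosen with earlier results of these data known. It holds 7 of the 47 leading genes, Spp1 among them, so its counts describe n17 and are no separate support. Chgb, a granin of dense-core vesicles, was 1959.8 ± 385 CPM in n17 and 418 CPM in n15. Cpe, which trims peptide precursors, was 3308 ± 609.7 CPM against 943 CPM, and Scg2, another granin, was 1836 ± 637 CPM against 567 CPM in n15 and 454 CPM in n16. Nmb, neuromedin B, was 839.7 ± 50.1 CPM in n17, 447 CPM in n15 and 2321 CPM in n16 with overlap on both sides. Crh, corticotropin-releasing hormone, averaged 186 CPM in n17, 32.2 CPM in n15, 23.8 CPM in n16 and 138 CPM in n18, with a wide range over libraries.

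Over all n17 cells, synapse, axon and lysosome lists had more members above than below the other M/TC clusters, against 7.13% of all genes above and 5.25% below n15, and 4.13% above and 1.7% below n16. Of 25 vesicle release genes, 10 were above and 2 were below n15, with Syp, synaptophysin, at 1287 ± 187 CPM against 401 CPM and Pclo, the active zone protein piccolo, at 231 CPM against 511 CPM. Of 14 neurofilament and axon cytoskeleton genes, 7 were above n15 and 6 above n16, among them Tuba4a (203 ± 25.7 CPM, 33.2 and 98.1 CPM) and Thy1 (695 ± 97.2 CPM, 215 and 196 CPM). Of 21 axon guidance and adhesion genes, 6 were above and 3 below n15, and 9 were above n16. Of 16 lysosome and secretory pathway genes, 9 were above n15 and 6 above n16. Of 13 calcium-binding genes, 6 were above n15 and 4 above n16, and of 7 sodium and calcium pump genes 3 were above n15. The 11 mitochondrially encoded genes overlapped with both clusters. Within N14 the counts above n15 were 5 of 25 for vesicle release, 6 of 14 for the cytoskeleton, 1 of 16 for lysosome and secretory genes, 3 of 13 for calcium binding and 1 of 7 for pumps. Of all 6956 genes, 390 were above and 186 below n15 there, and 225 above and 121 below n16. The axon guidance and adhesion list went the other way there, with 0 above and 3 below n15, while 6 stayed above n16.

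Markers of other cells were found in n17, and their part in the levels above was not tested. The summed inhibitory interneuron list of 10 genes was 556 to 1354 CPM in the n17 libraries, against a median of 4778 CPM over the other types. The sensory neuron list of 7 genes was 787 to 2465 CPM against 1099 CPM, and that of 7 astrocyte genes 4029 to 6991 CPM against 3517 CPM. Oligodendrocyte markers (7 genes) summed to 975 to 1864 CPM against 1418 CPM, ensheathing cell markers (6) to 1162 to 3101 CPM against 1444 CPM, and immature neuron markers (7) to 1167 to 2104 CPM against 1302 CPM. Microglial markers (7) summed to 409 to 924 CPM against 192 CPM. Their highest level of the 18 types was in n17 for 5 of the 7, against 1426 of the 18560 genes. Endothelial and mural markers (7) summed to 188 to 601 CPM against 238 CPM. Hemoglobin and red cell markers (5) were 1669.8 CPM in control 2 and 83.1 to 231 CPM in the other libraries. None of these lists had a member at 0 over all n17 cells.

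The n17 cells came from more than 1 cluster of the authors' separate annotation of the whole bulb. There, 776 n17 cells (83.7%) were in the cluster N15 and 100 (10.8%) in N14, with 29 in N6 and 22 elsewhere, whereas 88 of the 90 n15-M/TC-1 cells were in N14. The names N14 and N15 belong to the whole-bulb annotation and should not be read as n14 and n15 of the neuron annotation. The N14 cells were deep, with a median of 5174.5 UMIs and 2387 genes and 6.31% mitochondrial UMIs. The N15 cells had a median of 823 UMIs and 522.5 genes and 16.9% mitochondrial UMIs. The 100 N14 cells therefore held 43.1% of all n17 UMIs.

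**Figure D3:**
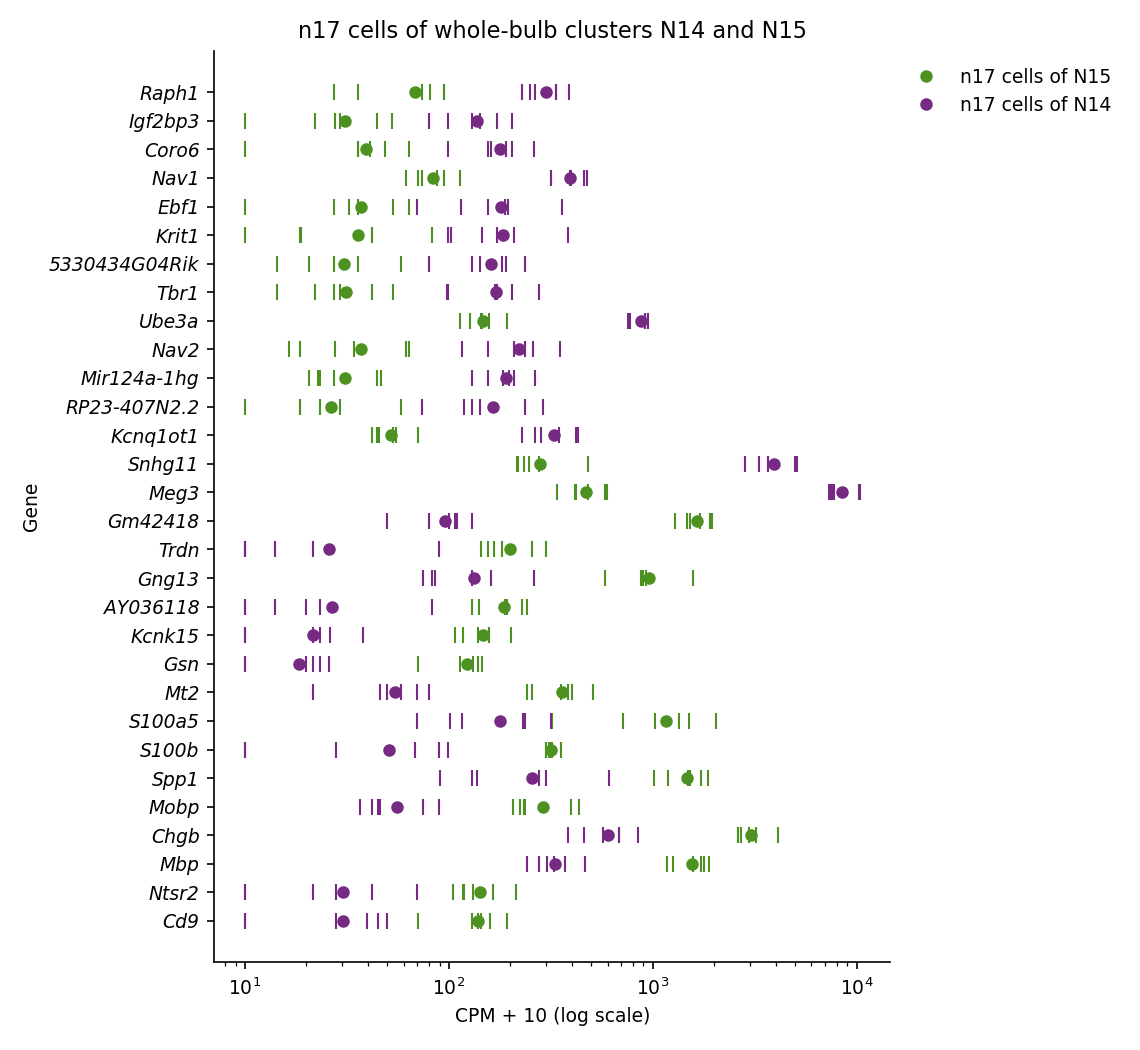
Mean CPM plus 10 (log axis) of 30 genes in the n17 cells of the whole-bulb clusters N15 and N14, with dots for the means over 6 libraries and ticks for single libraries. Gm42418, Chgb and Spp1 are higher in the N15 cells, and Meg3, Snhg11 and Tbr1 are higher in the N14 cells.

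The cells of N15 and N14 differed in many genes even though both carried the name n17. Meg3 was 462 CPM in the N15 cells, from 329 to 586 CPM over libraries, and 8439 CPM in the N14 cells, from 7268 to 10330.9 CPM. Snhg11 was 269 and 3920 CPM, and Ube3a, the ubiquitin ligase at the imprinted Angelman locus, was 136 and 861 CPM. Tbr1 was 21.4 CPM in the N15 cells and 160.1 CPM in the N14 cells. On the other side, Spp1 was 1455 CPM in the N15 cells (999 to 1855 CPM) and 247 CPM in the N14 cells (80.9 to 597 CPM), and Chgb was 3034 and 594 CPM. Gm42418, a locus that overlaps ribosomal RNA, was 1632 and 86.0 CPM. At 100 CPM or more, 24 genes were 4-fold higher in the N15 cells and 21 in the N14 cells with no overlap of libraries. These groups too were formed from the genes themselves and were not tested.

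Counted over the 6956 genes, 4.66% were higher in the N15 cells and 8.27% in the N14 cells with no overlap. Of the 30 peptides and secreted proteins, 16 were higher in the N15 cells, as were 13 of 16 lysosome and secretory genes and all 11 mitochondrially encoded genes. Among markers of other cells at 20 CPM or more, 5 of 7 astrocyte, 3 of 4 oligodendrocyte, 2 of 4 ensheathing, 3 of 6 sensory neuron and 1 of 10 inhibitory markers were higher in the N15 cells, and 2 of 7 immature neuron markers were higher in the N14 cells. All microglial, endothelial and red cell markers of that level overlapped. After thinning, 14.8% of N15 cells and 95.0% of N14 cells had a Meg3 UMI, against 6.92% of n01 cells. For Cdhr1 the shares of the same cells were 63.9% and 34.0%, and for Cck 42.1% and 70.0%, against 1.33% and 4.92% of n01 cells.

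All 3 M/TC clusters have cells in N14, and a part of the differences between n17 and its neighbours was without overlap there. Of the 49 genes 4-fold higher in n17 than in n15, all kept their direction there and 34 still had no overlap. All 143 lower genes also kept their direction, 98 of them without overlap, as did all 81 higher and 42 lower genes against n16, 52 and 36 of them without overlap. These genes were chosen from sums that hold the same N14 cells, so the kept direction is no separate check. Of the 6956 genes averaging 20 CPM or more, 390 were above and 186 below n15 within N14 without overlap. Against n16 these counts were 225 and 121. Counted anew by the 4-fold rule within N14, 92 genes were higher and 45 lower in n17 than in n15. Cdhr1 was 1473 CPM in the n17 cells of N14 against 527 CPM in n15 and 476 CPM in n16, without overlap. Spp1, at 247 CPM against 110.2 CPM in n15, and Reln, at 797 CPM against 712 CPM, overlapped with n15 within N14. So did Slc17a7 (1225 against 757 CPM), Shisa3 (122 against 28.4 CPM), Scube1 (201 against 149 CPM), Chgb (594 against 419 CPM), Scg2 (807 against 564 CPM) and Cpe (1807 against 942 CPM). Gria2 stayed lower (556 against 2169 CPM in n15) and Atp6v1a stayed higher (611 against 28.6 CPM).

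The share of n17 among the annotated neurons was highest in the control libraries. It was 5.33% and 5.66% in the control group, 4.96% and 3.46% in the naris-occluded group, and 3.05% and 3.46% in the trained group. The trained libraries lay below both control libraries, and so did the naris-occluded libraries. No difference passed the test over the 18 types (edgeR quasi-likelihood test, n = 2 libraries per group). The log2 change was -0.76 (SE 0.306, adjusted p = 0.331) for trained against control, -0.39 (SE 0.303, adjusted p = 0.489) for naris-occluded against control, and 0.37 (SE 0.308, adjusted p = 0.484) for naris-occluded against trained. At an unadjusted p of 0.0206, trained against control was the only one of these 3 under 0.05, and DESeq2 gave adjusted p-values of 0.628, 0.636 and 0.580 in the same order. An exact 2-sided permutation test on the shares gave p = 0.333 for each, the smallest that 2 against 2 libraries allow. A share cannot tell fewer n17 cells from more cells of other types or from unequal recovery after dissociation.

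**Figure D4:**
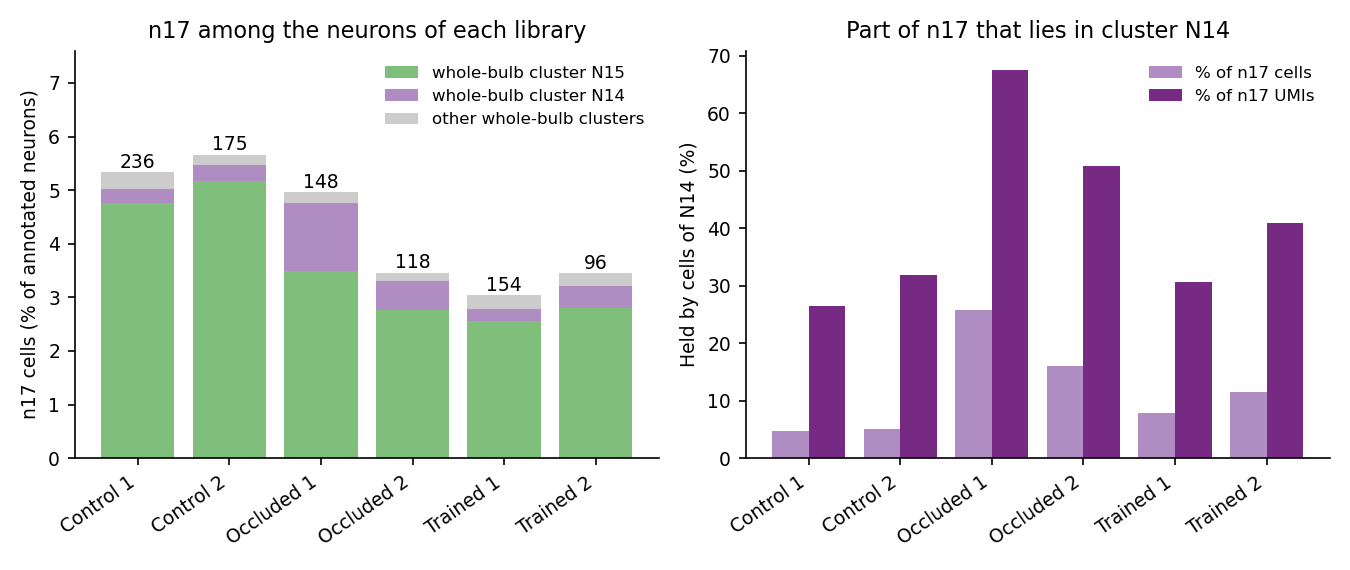
Left, n17 cells as a percent of annotated neurons in each library, stacked by whole-bulb cluster (N15, N14, other), with the number of n17 cells above each bar. Right, the percent of n17 cells and of n17 UMIs held by N14 cells. The 2 naris-occluded libraries have the highest N14 shares, 25.7% and 16.1% of n17 cells.

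The N14 and N15 cells of n17 did not follow the groups alike. The N15 cells made up 4.77% and 5.18% of neurons in the control group, 3.49% and 2.75% in the naris-occluded group, and 2.55% and 2.81% in the trained group. The N14 cells made up 0.248% and 0.291%, 1.27% and 0.557%, and 0.237% and 0.396% in the same order. In a fit of the N14 cells alone, chosen after the data were seen, the naris-occluded group was higher than the control group by 1.75 on the log2 scale (SE 0.515, adjusted p = 0.0305, edgeR) and higher than the trained group by 1.58 (SE 0.506, adjusted p = 0.0304). These rest on 11 and 9 control, 38 and 19 naris-occluded, and 12 and 11 trained cells, and without naris-occluded 1 neither passed the test (1.05, adjusted p = 0.337, and 0.89, adjusted p = 0.313). For the N15 cells alone the log2 change was -0.89 for trained against control (adjusted p = 0.0645) and -0.67 for naris-occluded against control (adjusted p = 0.124). Depth also ran with the groups. The median UMIs of the other neurons were 1322 and 1185 in naris-occluded, 1010.5 and 937 in control and 811 and 986 in trained libraries. N14 cells were deeper than N15 cells, and the part of library depth in the N14 share was not tested.

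The N14 cells held 67.5% and 50.7% of the n17 UMIs with the naris occluded, 26.5% and 31.9% without manipulation and 30.6% and 40.8% after training. This make-up moved with the groups, and its part in the differences between groups was not tested, so values in the N15 cells alone are given beside those of all n17 cells for the genes that passed the test. Nrip1, Hlf, Fos, Gad2 and Cplx2 had too few UMIs in the N15 cells to be tested there.

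Summed over all n17 cells, 4389 genes were tested between groups (edgeR quasi-likelihood test with Benjamini-Hochberg adjustment at 0.05, n = 2 libraries per group). Between the naris-occluded and control groups 4 genes (0.0911%) rose and 18 (0.41%) fell. Between the trained and control groups 1 gene (0.0228%) rose and 5 (0.114%) fell. Between the naris-occluded and trained groups no gene (0.0%) was higher and 7 (0.159%) were lower in the naris-occluded group. At an unadjusted p under 0.05 there were 513, 221 and 307 genes. The first 2 of these comparisons share the control libraries. With library totals in place of TMM factors, which moved the median of all genes by 0.13 on the log2 scale in both comparisons of the naris-occluded group, the calls were 3 higher and 5 lower, 0 and 2, and 0 and 3. The signs of the list medians given below for that group were the same under both scalings. In the N15 cells alone the counts of called genes were 1, 4 and 7, the first 5 of them lower. Of those 7, 6 were higher and 1 was lower in the naris-occluded group, and none was among the 7 called over all n17 cells. The 1 was S100a5, and the 4 were Crh, Gpr37l1, Hbb-bs and Cldn5, a tight junction gene of endothelial cells that was named after its values were seen (-2.15 for training, adjusted p = 0.00533). The 6 higher genes, likewise named after their values were seen, were Cldn5 (2.61, adjusted p = 0.000239), the complement genes C1qa and C1qc of microglia (1.67 and 1.57, adjusted p = 0.00294 and 0.0267), Itm2a, Ifitm3 and Fxyd1, and the lower one was Psd3. Without naris-occluded 1 the third comparison over all n17 cells had 6 higher and 6 lower genes. Without naris-occluded 2 the first count was 134, and without trained 1 or trained 2 it was 39 or 50.

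The differences of n17 were also set against those of all other annotated neurons of the same libraries, over 12766 genes (edgeR quasi-likelihood test of the interaction). In this test 20 genes (0.157%) changed differently in n17 between the naris-occluded and control groups, and 8 genes (0.0627%) between the trained and control groups. On simulated counts it recovered 13% of 2-fold and 72% of 4-fold differences. A gene that it did not call is therefore not shown to change alike in n17 and the other neurons. With the N15 cells of n17 alone these counts were 3 and 4, and without naris-occluded 2 or naris-occluded 1 the first count was 54 or 7.

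**Figure D5:**
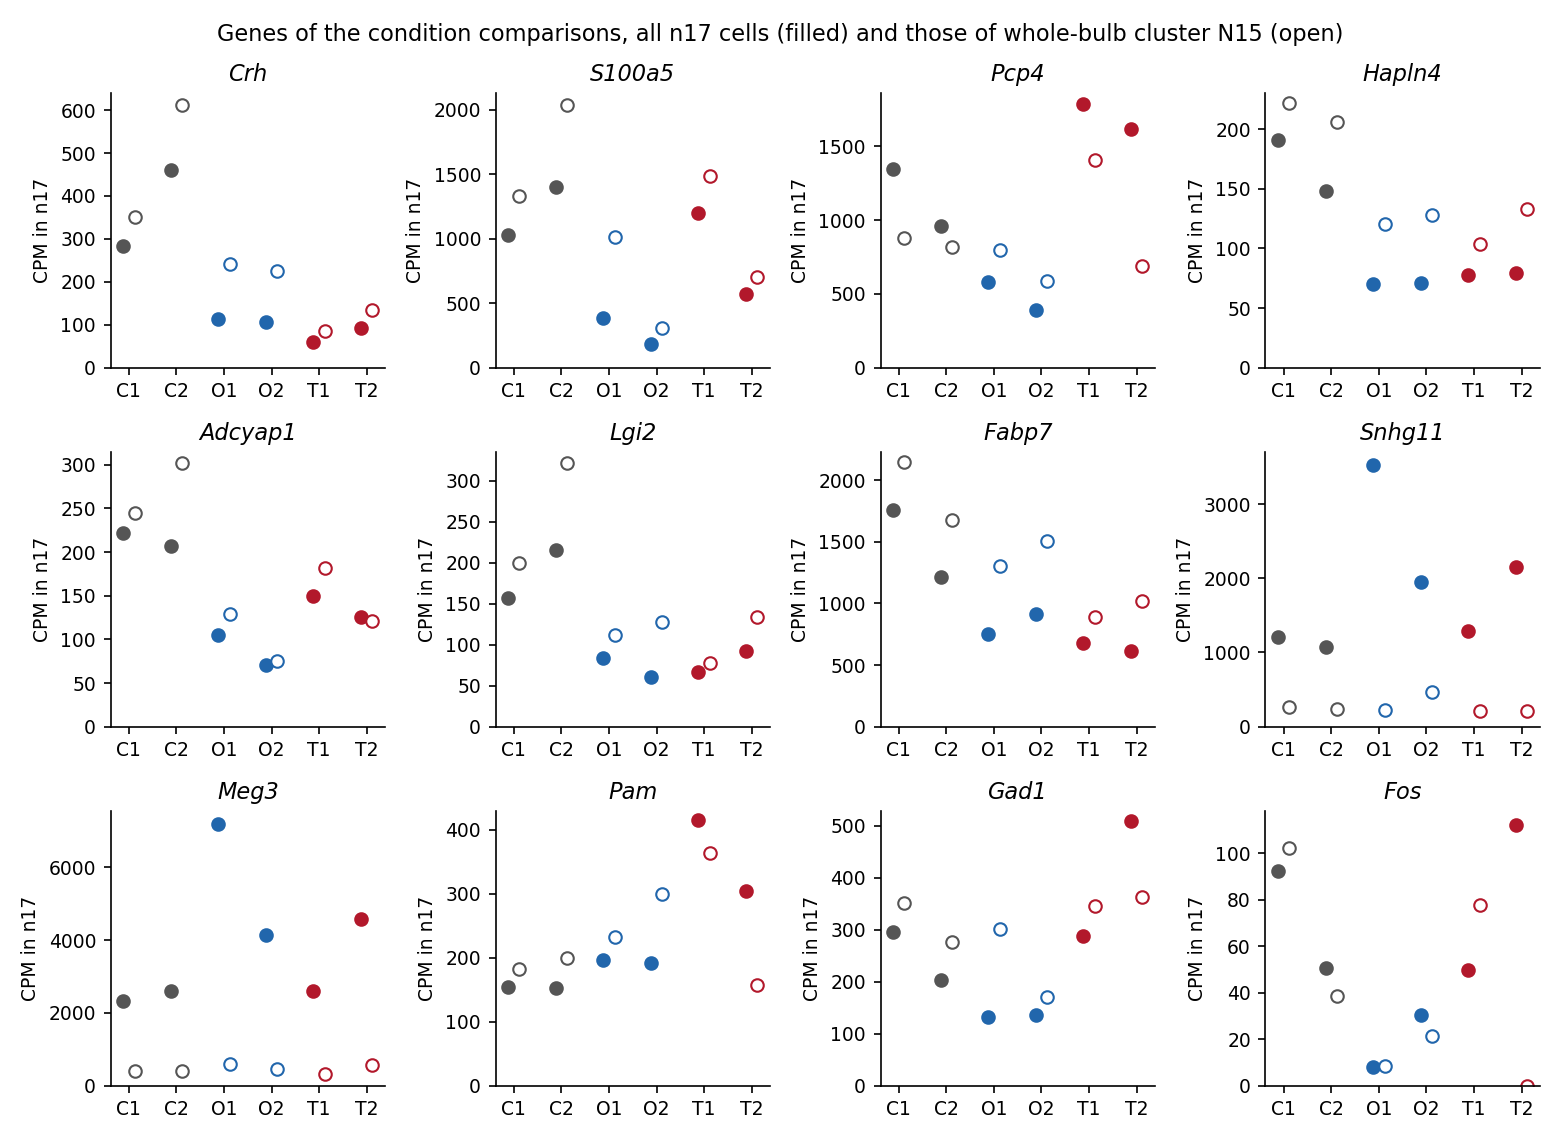
CPM of 12 genes in each library (C, control, O, naris-occluded, T, olfactory-trained, with the replicate number), with filled points for all n17 cells and open points for the n17 cells of N15. Crh is lower in all 4 manipulated libraries than in both control libraries for either set of cells, and the open points of Meg3 and Snhg11 lie between 206 and 586 CPM in every library.

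Crh, the peptide that drives the stress axis and that some bulb neurons also make, fell in both manipulated groups. It was 284 and 461 CPM in control, 113 and 106 CPM in naris-occluded and 60.9 and 92.5 CPM in trained libraries, so both manipulated groups lay below the controls without overlap. The log2 change was -1.84 in naris-occluded (SE 0.279, adjusted p = 0.000242) and -2.28 in trained libraries (SE 0.326, adjusted p = 0.000147). The calls held without each library in turn, with adjusted p of at most 0.00498 and 0.00146. In the N15 cells the change was -2.16 in the trained group (adjusted p = 2.85e-06) and -1.02 in the naris-occluded group (adjusted p = 0.268). DESeq2 gave adjusted p-values of 0.00411 and 0.00363. Crh was not among the genes that changed differently in n17 than in the other neurons, so a change particular to n17 was not shown.

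S100a5, a calcium-binding protein of olfactory sensory neurons, had the strongest call in the naris-occluded comparison. It was 1029 and 1403 CPM in control, 384 and 182 CPM in naris-occluded and 1197 and 575 CPM in trained n17 cells. The naris-occluded libraries were lower than all 4 others, by -2.15 against control (SE 0.292, adjusted p = 4.83e-05) and -1.71 against trained (SE 0.298, adjusted p = 0.00254). Neither call was made by DESeq2, with adjusted p-values of 0.0995 and 0.9995. S100a5 was also not among the genes that changed differently in n17 than in the other neurons. It also fell in the N15 cells (-1.30, adjusted p = 0.00967), whose difference from the trained group was -0.70 (adjusted p = 0.656). S100a5 was 20491 CPM in the sensory neuron cluster n01, and after thinning it was found in 35.2% of n17 and 91.9% of n01 cells. S100a5 is itself 1 of the 7 sensory neuron markers. The other 6 summed to 882 and 807 CPM in control, 459 and 606 CPM in naris-occluded and 1269 and 436 CPM in trained n17 libraries, and their part in the result was not tested. Without trained 1 the call against trained was lost (adjusted p = 0.305).

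Peptide genes formed the largest group of calls. Of 27 members tested between naris-occluded and control libraries, 5 fell, against 0.41% of all genes, and none rose, with a median log2 change of -0.38 against 0.00 over all genes. Besides Crh they were Scg2, Adcyap1, Vgf and Spp1. None of the 5 was among the genes that changed differently in n17 than in the other neurons. Scg2 was 2617 and 2570.2 CPM in control and 1023 and 1418 CPM in naris-occluded libraries (-1.20, SE 0.220, adjusted p = 0.00339). Adcyap1, the precursor of the peptide PACAP, was 222 and 207 CPM in control, 105 and 70.7 CPM in naris-occluded and 149.6 and 125 CPM in trained libraries (-1.34, SE 0.287, adjusted p = 0.0221). For Adcyap1 DESeq2 gave an adjusted p of 0.327. It lost the call without control 1 (adjusted p = 0.0816). Spp1 changed by -1.18 (SE 0.247, adjusted p = 0.0204). How far the calls of Scg2 and Spp1 depend on single libraries is not given here. In the N15 cells the list's median was -0.09 and none of 26 members passed the test, with Adcyap1 at -1.38 (adjusted p = 0.152), Scg2 at -0.79 (adjusted p = 0.446) and Spp1 at -0.37 (adjusted p = 0.997).

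Among activity-regulated genes, 3 of 7 tested fell in the naris-occluded group, against 0.41% of all genes, and 4 did not pass the test. Scg2 and Vgf are counted among the peptide genes as well. The median log2 change of the 7 was -0.75 with naris occlusion and -0.38 with training, where none passed. In the N15 cells 4 could be tested and none passed, with medians of -0.74 and -0.80. Fos, the immediate early transcription factor, was 92.5 and 50.7 CPM in control, 8.06 and 30.3 CPM in naris-occluded and 49.9 and 112 CPM in trained libraries (-2.27, SE 0.546, adjusted p = 0.0408), and lost the call without control 1 or naris-occluded 1 (adjusted p = 0.420 and 0.520). Vgf, a neuropeptide precursor induced by activity, was 98.6 and 88.8 CPM in control, 26.9 and 20.2 CPM in naris-occluded and 83.1 and 6.60 CPM in trained libraries (-2.03, SE 0.497, adjusted p = 0.0465). It lost the call without control 1 or naris-occluded 1 (adjusted p = 0.128 and 0.0510), and the N15 cells gave -1.75 (adjusted p = 0.366). Egr1 and Arc, further immediate early genes, averaged only 26.7 and 6.54 CPM in n17.

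Pcp4, a regulator of calmodulin, was 1344 and 964 CPM in control, 583 and 394 CPM in naris-occluded and 1789 and 1618 CPM in trained libraries. It fell with naris occlusion against control (-1.33, SE 0.236, adjusted p = 0.00237) and was lower than in trained libraries by -1.88 on the log2 scale (SE 0.239, adjusted p = 1.08e-05). The first call was lost without control 1 (adjusted p = 0.0799). The N14 cells alone gave log2 changes of -2.39 and -2.88 (adjusted p = 0.000949 and 2.05e-05) and the N15 cells -0.29 and -0.60 (adjusted p = 0.997 and 0.887), and the difference between the 2 kinds of cell was not tested. Granule cells express far more of it, with 6900.0 CPM in n11. Gad1 and Gad2, which granule cells also express, were lower in naris-occluded than in trained libraries by -1.65 (adjusted p = 0.00254) and -1.99 (adjusted p = 0.0476). Gad1 was 132 and 136 CPM in naris-occluded and 288 and 509 CPM in trained libraries, and in the N15 cells it differed by -0.54 (adjusted p = 0.981). DESeq2 gave adjusted p-values of 0.000564 and 1.26e-08 for the 2 Pcp4 comparisons, 0.0499 for Gad1 and 0.9995 for Gad2. Gad1 and Gad2 belong to the 10 inhibitory markers. The other 8 summed to 397 and 439 CPM in naris-occluded, 576 and 545 CPM in control and 765 and 726 CPM in trained libraries, and their part in these results was not tested. Gad1 lost the call without trained 2 (adjusted p = 0.114), and Gad2 without naris-occluded 1, trained 1 or trained 2 (adjusted p = 0.222, 0.129 and 0.186).

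Further genes fell with naris occlusion. Lgi2, a secreted synaptic protein, was 157 and 216 CPM in control and 83.3 and 60.6 CPM in naris-occluded libraries (-1.41, SE 0.306, adjusted p = 0.0222, and 0.149 without control 2). Hapln4, a link protein of perineuronal nets, was 191 and 148 CPM against 69.8 and 70.7 CPM (-1.39, SE 0.305, adjusted p = 0.0236), and lost the call without control 1 or naris-occluded 1 (adjusted p = 0.224 and 0.165). DESeq2 gave an adjusted p of 0.454 for both Lgi2 and Hapln4. Sema3a, a secreted axon guidance cue, changed by -1.30 (adjusted p = 0.0385), Slc38a1 by -0.94 (adjusted p = 0.0385), Serpine2, a protease inhibitor, by -1.26 (adjusted p = 0.0385) and Gm42418 by -1.04 (adjusted p = 0.0222). How far the calls of Sema3a, Slc38a1, Serpine2 and Gm42418 depend on single libraries is not given here. The N15 cells gave, for these 6 genes, -1.10 (Lgi2, adjusted p = 0.446), -0.80 (Hapln4, adjusted p = 0.961), -0.67 (Sema3a), -0.46 (Slc38a1), -0.69 (Serpine2) and -0.29 (Gm42418), the last 4 at an adjusted p of 0.997. Gpr37l1, a receptor found mainly in astrocytes, was 142 and 152 CPM in control, 53.7 and 70.7 CPM in naris-occluded and 49.9 and 19.8 CPM in trained libraries, with calls in both comparisons (-1.38, adjusted p = 0.0438, and -2.01, adjusted p = 0.0301). The first was lost without control 1, control 2 or naris-occluded 1 (adjusted p = 0.0864, 0.135 and 0.344) and the second without trained 2 (adjusted p = 0.596). Gpr37l1 in the N15 cells had a change of -1.18 with occlusion (adjusted p = 0.370) and fell with training (-2.46, adjusted p = 0.000246). Over all n17 cells DESeq2 gave adjusted p-values of 0.606 and 0.972 for Gpr37l1. The astrocyte markers summed to 6991 and 6214 CPM in control, 4029 and 5052 CPM in naris-occluded and 4238 and 4418 CPM in trained libraries.

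The genes that rose with naris occlusion were Snhg11, Meg3, Nrip1 and Hlf. Meg3 was 2330.2 and 2608 CPM in control, 7195 and 4153 CPM in naris-occluded and 2593 and 4570.2 CPM in trained libraries (1.10, SE 0.247, adjusted p = 0.0280). Snhg11 was 1208 and 1078 CPM, 3529 and 1953 CPM, and 1285 and 2153 CPM (1.16, SE 0.244, adjusted p = 0.0204). In the N15 cells alone the changes were 0.37 and 0.41 (adjusted p = 0.997 for each), and both RNAs were high in the N14 cells of every group. DESeq2 over all n17 cells gave adjusted p-values of 0.546 for Meg3, 0.454 for Snhg11 and 0.454 for Hlf. Nrip1, a nuclear receptor corepressor, rose by 1.79 (adjusted p = 0.0280) and Hlf, a circadian transcription factor, by 1.54 (adjusted p = 0.0303). Each of the 4 lost the call without naris-occluded 1, with adjusted p of 0.338 for Snhg11, 0.364 for Meg3, 0.314 for Nrip1 and 0.793 for Hlf. Other single libraries that ended a call were control 1 for Meg3, Nrip1 and Hlf (adjusted p = 0.175, 0.310 and 0.208) and control 2 for Meg3 and Snhg11 (adjusted p = 0.0841 and 0.114).

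Between trained and control libraries, Pam, which amidates peptides such as cholecystokinin, was the gene that rose. It was 154 and 152 CPM in control, 196 and 192 CPM in naris-occluded and 416 and 304 CPM in trained libraries (1.23, SE 0.270, adjusted p = 0.0401). For Pam DESeq2 gave an adjusted p of 0.641. The call was lost without control 1, control 2 or trained 1 (adjusted p = 0.146, 0.198 and 0.739), and the N15 cells gave 0.49 (adjusted p = 0.998). Apart from Crh and Gpr37l1, the genes that fell were Fabp7, Npy and Hbb-bs. Fabp7, a fatty acid binding protein of glia, was 1754 and 1213 CPM in control, 755 and 913 CPM in naris-occluded and 676 and 614 CPM in trained libraries, and it fell in both comparisons (-1.21, adjusted p = 0.0134 for training, -0.94, adjusted p = 0.0393 for occlusion). Npy, neuropeptide Y, fell in the trained group by 1.11 on the log2 scale (adjusted p = 0.0401). For training, DESeq2 gave an adjusted p of 0.127 for Npy and 0.0119 for Fabp7. The N15 cells gave changes of -1.03 (adjusted p = 0.0719) and -0.46 (adjusted p = 0.997) for Fabp7 and -0.93 (adjusted p = 0.149) for Npy. Hbb-bs, a hemoglobin chain of red blood cells, fell with training in all n17 cells (-2.46, adjusted p = 0.0127) and in the N15 cells (-3.11, adjusted p = 2.41e-07). It was 129 and 389 CPM in control, 172 and 75.7 CPM in naris-occluded and 49.9 and 39.6 CPM in trained libraries. Without control 2, whose red cell markers summed highest, the change was -1.53 (adjusted p = 0.278), and DESeq2 gave -2.53 (adjusted p = 0.9999). Fabp7 and Npy belong to the 6 ensheathing cell markers, which with them summed to 3101 and 2414 CPM in control, 1445 and 2004 CPM in naris-occluded and 1324 and 1162 CPM in trained libraries, and the part of those cells was not tested. Fabp7 in training and Npy lost the call without control 1 (adjusted p = 0.412 and 0.230) or trained 2 (adjusted p = 0.0820 and 0.262).

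Other differences between naris-occluded and trained libraries rested on single libraries. Cplx2, complexin 2 of the vesicle fusion machinery, was 343 CPM in trained 2 and 51.0 to 72.0 CPM in the other 5 libraries. Its log2 difference of -2.0 (adjusted p = 0.0302) was lost without trained 2 (adjusted p = 0.877). Serpini1, a neuronal protease inhibitor, was 365 and 545 CPM in naris-occluded and 731 and 1202 CPM in trained libraries (-1.19, adjusted p = 0.0292, lost without naris-occluded 1 or trained 2 at adjusted p = 0.214 and 0.314). The N15 cells gave -0.21 for Serpini1 (adjusted p = 0.990). DESeq2 over all n17 cells gave adjusted p-values of 0.918 for Cplx2 and 0.102 for Serpini1.

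The genes that mark n17 as output neurons did not pass the test in any comparison. None of the 8 identity genes tested was called. Between naris-occluded and control libraries, Cdhr1 changed by -0.42 (SE 0.216, adjusted p = 0.451), Slc17a7 by -0.54 (SE 0.210, adjusted p = 0.302), Reln by -0.23 (SE 0.214, adjusted p = 0.739) and Nmb by -0.01 (SE 0.215, adjusted p = 0.990). Eomes, a T-box factor of these cells, was 160 and 123 CPM in control, 295 and 217 CPM in naris-occluded and 161 and 92.5 CPM in trained libraries (0.76 against control, SE 0.277, adjusted p = 0.248). Lysosome and secretory genes, 16 in number, had negative estimates in every case in this comparison with a median of -0.54, and none passed the test. Their median was -0.10 in the N15 cells. The 11 mitochondrially encoded genes likewise had a median of -0.45 over all n17 cells and -0.02 in the N15 cells.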

How the data were processed

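Single cells of mouse olfactory bulb, which per the labels can include some olfactory epithelium, were dissociated with papain, captured in droplets and sequenced from the 3′ end with UMIs. The authors deposited 1 table of raw UMI counts (18560 genes, 52549 barcodes), of which 51426 barcodes have a whole-bulb cluster, and metadata with cluster names, library and, for each cell, the fraction of mitochondrial counts. The submitters' processing notes name Cell Ranger 2.0.0, Seurat 2.2.1 and the build mm10. The deposited fraction was not printed, and mitochondrial percents were recomputed from the counts. Cell types are those of the deposited neuron annotation. The library of each cell came from the deposited library column, since the start of the cell name differed from it in all 250 n17 cells of the trained libraries. Replicate 1 libraries (3 of 3) carried Y-linked transcripts and no Xist, and replicate 2 libraries (3 of 3) the reverse. No doublets were removed here.

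UMI counts were summed over the n17 cells of a library and tested with edgeR 4.0.16 (R 4.3.3, quasi-likelihood fit over all 6 libraries, TMM factors, filterByExpr, Benjamini-Hochberg threshold 0.05), with DESeq2 1.42.0 as an alternative. Cell numbers were tested in the same way over the 18 types with the neuron totals as library sizes. The difference between n17 and the other neurons was tested as an interaction over 12 sums with the library as a block. Levels are CPM. Ratios between types add 10 CPM to each side. Thinning drew 500 UMIs per cell without replacement. Figures used matplotlib 3.10.9, and tables pandas 2.3.3, numpy 2.4.6 and scipy 1.17.1 under Python 3.11.15. The tests were tested on simulated data. The group test recovered 46.2% of 2-fold and 89.0% of 4-fold changes with 9 false calls. The interaction test recovered 13% and 72% with 3 false calls. Named genes were the 25 leading genes by ratio at 100 CPM or more, up to 10 per direction for each contrast and comparison, and list members. Values of some genes are not reported here. The cell group, the gene lists and the comparisons were chosen with earlier results of these data known. Sums of marker lists without the gene they are set beside, and list counts within N14, were added after the data were seen. SDs and SEs rest on the spread between libraries, and shares of cells are given without intervals. Precision is limited by 96 to 236 n17 cells per library.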

Additional observations from a re-analysis of the deposited data

Results flagged for a closer look

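The genes that changed differently in n17 than in the other annotated neurons (edgeR quasi-likelihood test of the difference, library as a block) numbered 20 for naris occlusion against control and 8 for training against control. Without control 2 the first count was 9.

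None of the neuronal genes named here passed the test in the other neurons. Pcp4 had a log2 change of -1.33 in n17 and -0.11 in the other neurons, a difference of -1.28 (adjusted p = 1.12e-07). For Fos the difference was -2.21 (adjusted p = 0.0294), and for Sp8, a transcription factor of bulb interneurons, -1.92 (adjusted p = 0.0294). Calb2 differed by -0.82 (adjusted p = 0.0162), with a log2 change of -0.15 in n17 and 0.52 in the other neurons. In the other direction the difference was 1.21 for Snhg11 (adjusted p = 9.55e-08), 0.89 for Meg3 (adjusted p = 0.000362) and 1.5 for Hlf (adjusted p = 0.0294). The N14 cells held 67.5% and 50.7% of n17 UMIs with the naris occluded and 26.5% and 31.9% without manipulation. In cell numbers of the other neurons, the log2 change was -1.73 for n14-GC-7 (adjusted p = 0.000112, edgeR) and 1.05 for n03-GC-1 (adjusted p = 0.0921). The part of either make-up in these differences was not tested.

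Markers of glia and blood were flagged in the same test. Fabp7 differed by -0.89 for occlusion (adjusted p = 0.00372) and -1.03 for training (adjusted p = 0.000814), and Npy by -1.05 for training (adjusted p = 0.00143). The hemoglobin gene Hbb-bs differed by -2.78 and -2.01 (adjusted p = 4.19e-20 and 0.000642), Hba-a1 by -7.89 and -4.24 (adjusted p = 1.83e-59 and 9.96e-10) and Hba-a2 by -5.25 and -2.91 (adjusted p = 1.62e-33 and 0.000189). Red cell markers summed to 1669.8 CPM in the n17 cells of control 2 and to 83.1 to 231 CPM in the other 5 libraries. With few UMIs elsewhere the fitted sizes depend on the prior count and are no bounds. The very small p-values of these genes rest on a spread shared across genes. They do not measure how unequal these genes were between libraries. With occlusion these genes also changed in the other neurons, where Hba-a1 (26.6 and 17.1 CPM in control, 143 and 101 CPM in naris-occluded libraries) rose by 2.37 (adjusted p = 0.00256) and Hba-a2 by 1.90 (adjusted p = 0.00780), while Hbb-bs had an estimate of 1.61 (adjusted p = 0.0686). Cplx2 differed by 1.57 for training (adjusted p = 0.0175), and trained 2, with 343 CPM, was the only library above 72.0 CPM.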

How the results depend on the processing

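With 22, 6 and 7 genes called in n17 for naris-occluded against control, trained against control and naris-occluded against trained, library totals in place of TMM factors gave 8, 2 and 3, DESeq2 gave 6, 2 and 2, and thinning each cell to 500 UMIs, added after seeing the data as were all choices by N14, N15, 1000 UMIs or deepest cell, gave 4, 3 and 1. The 1 gene called after thinning in the last comparison was Snhg11, higher in the naris-occluded group and not among the 7. No filter on low genes gave 41 and 11 in the first 2 comparisons. Fits of only the groups compared gave 11 and 2 in the last 2, and cells under 20% mitochondrial UMIs gave 2 and 4. Cells of at least 1000 UMIs gave 5 for the first and 2 for the last, and dropping the deepest cell of each library gave 38 and 1. The N15 cells gave 1 for the first, and the N14 cells gave 2 for each of the first 2. Leaving out 1 library gave 16 to 134, 6 to 16 and 8 to 36. The interaction counts of 20 and 8 became 3 and 4 in the N15 cells and 7 to 54 and 3 to 12 without 1 library. Of the alternative values for the named genes, 306 stayed on their side of the threshold, 148 lost the call and 0 reversed.

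The replicate block gave 36 called genes for naris-occluded against control and changed neither other count by over 1.5 times. Deviations of same-numbered libraries correlated at -0.0736, 0.0452 and -0.0397 over 4386 genes, and these libraries share the sex of the mice. Whether control and naris-occluded libraries share animals is not settled by the labels.

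For the number of n17 cells, the N14 cells alone reversed the sign for naris-occluded against control (1.75, or 1.05 without naris-occluded 1) and trained against control (0.17 in both cases), and gave 1.58 for naris-occluded against trained. Leaving out 1 library gave -0.67 to -0.15, -0.85 to -0.67 and 0.09 to 0.61. The cause of these changes was not tested.

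The 47 leading genes became 30 with nonneuronal clusters and 41 to 53 without 1 library. For the N15 cells there were 78, with 43 of the 47 kept, and for the N14 cells 64, with 20 of the 47 kept. For n17 over n15, the 49 genes became 160 in the control libraries alone, where fewer libraries can overlap, with 33 of the 49 kept. They became 93 for N14 cells of n17 and 92 for N14 cells of both, with 31 kept in each. Without 1 library there were 37 to 71. The 143 lower genes became 412 (124 kept), 76 at 1000 UMIs (74 kept) and 280 for N15 (140 kept). For N14 they became 48 and 45 (38 and 35 kept), and without 1 library 147 to 191. For n16, the 81 higher genes became 134 in the controls (66 kept) and 122 for N15 (73 kept), with 79 to 100 without 1 library. The 42 lower genes became 71 (30 kept), 75 (40 kept), and 14 for N15 cells of both (12 kept), with 44 to 49 without 1 library. Depth limits genes near 10 CPM in n17, which had few UMIs per library. In n15 and n16 it limits genes well above that level, since 1 UMI could reach 113 CPM in an n15 library.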
